A study of Mus musculus with 2 samples.

Results

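The lymphoid priming genes described here are 9 genes, Dntt, Flt3, Il7r, Notch1, Cd27, Satb1, Tox, Ikzf1 and Lsp1, picked by symbol out of the 32285 genes counted in each library. They were followed in mouse bone marrow cells that all carried a vector for the truncated leukaemia mutant RUNX1-S291fs together with GFP. The cells came from a wild-type (WT) or a Phf6 knockout (KO) donor background, were transplanted into recipient mice, and were sorted from recipient marrow as GFP-positive, lineage-negative cells after 8 weeks. Phf6 encodes a PHD-finger chromatin protein, and the mutant RUNX1 was thus present in both groups, so that KO against WT compares Phf6 status on top of it. The labels give neither the number of donor or recipient mice, nor their age or strain, nor the knockout allele. There was 1 single-cell 3′ library per genotype.

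Lymphoid priming is the low, early expression of lymphoid genes in multipotent cells of the marrow before a lymphoid fate is fixed. In the usual account, multipotent progenitors gain the receptor Flt3 as they lose stem cell genes, then switch on Dntt, Rag genes and Il7r, with Ikzf1 and Satb1 acting upstream and Notch1 steering cells towards the T lineage. Hlf and Mecom encode transcription factors that mark and maintain haematopoietic stem cells, and serve here as the stem cell genes with which the 9 genes were or were not detected.

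The comparison rests on 4478 WT and 4709 KO cells that passed the filters, with medians of 24800 and 21428 UMIs per cell (unique molecular identifiers, each standing for 1 captured RNA molecule). The libraries shared 10 cell barcodes, of which 7 were among the cells kept. These cells held 118834279 and 110416265 UMIs in all. Levels are in CPM, the usual scaled share of a gene's UMIs among all UMIs of the same cells. Phf6 was at 41.7 CPM in the WT library and at 20.7 CPM in the KO library; the counts are of 3′ ends, and the removed part of the gene is not given in the labels. UMIs were added up per library and group of cells, and intervals are 95% and cover counting error only: with 1 library per genotype no test across mice was possible and no p-value is given. Cells were clustered without the 9 genes, Hlf and Mecom, so that where these genes lie was not set by their own counts, although genes that vary with them took part. Clusters named by fixed markers carry "-like", and haematopoietic stem and multipotent progenitor-like (HSC/MPP-like) cells made up clusters 0, 2, 8 and 26.

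The upstream sequences of 3 of the genes are shown because the levels of Dntt and Flt3 were higher in KO in stem and progenitor cells and that of Cd27 was not. Each is the 250 bases before the RefSeq start (GRCm38.p6), 5′ to 3′ on the strand of the gene, and capitals mark E-box letters (CANNTG), the kind of site that E proteins such as Tcf3 bind. Dntt lies at chr19:41029025-41029274 on the plus strand, Flt3 at chr5:147400490-147400739 and Cd27 at chr6:125237028-125237277, both on the minus strand.
Dntt: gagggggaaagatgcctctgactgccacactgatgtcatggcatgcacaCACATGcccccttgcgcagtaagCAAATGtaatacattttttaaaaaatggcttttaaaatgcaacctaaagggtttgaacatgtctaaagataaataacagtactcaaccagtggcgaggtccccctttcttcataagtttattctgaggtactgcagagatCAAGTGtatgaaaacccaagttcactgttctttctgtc
Flt3: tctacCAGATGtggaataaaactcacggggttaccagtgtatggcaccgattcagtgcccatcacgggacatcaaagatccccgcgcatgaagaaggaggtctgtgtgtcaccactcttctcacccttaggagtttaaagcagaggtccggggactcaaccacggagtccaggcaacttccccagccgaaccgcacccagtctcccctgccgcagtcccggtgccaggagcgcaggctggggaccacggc
Cd27: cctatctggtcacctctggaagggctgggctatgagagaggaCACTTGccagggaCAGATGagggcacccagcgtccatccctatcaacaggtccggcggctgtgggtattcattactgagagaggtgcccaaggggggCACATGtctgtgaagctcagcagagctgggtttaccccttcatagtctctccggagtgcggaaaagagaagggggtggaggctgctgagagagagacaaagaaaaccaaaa
The Dntt and Cd27 windows held 3 E-boxes each and the Flt3 window 1, with the Dntt E-box nearest to the start beginning 38 bases before it. An E-box stood in 66.2% of all 32851 windows of this length, so these matches are common letters. The RUNX core TGTGGT (14.05% of all windows), the Ikaros-type letters TGGGAA (21.6%) and the ETS-type letters CGGAAG (13.6%), each searched on both strands, were not in these 3 windows. Only these exact letters were searched, so other forms of the same sites may still be present. The tables used here held 1 window each for Dntt, Flt3, Il7r, Notch1 and Cd27, 5 for Satb1 and 2 for Ikzf1.

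Over all cells, 4 of the 8 genes that reached a mean of 10 CPM were at least 1.5-fold higher in KO (Dntt, Flt3, Satb1 and Tox) and 0 of 8 were as much lower, where 2.06% of the 8580 genes at that level were as much higher and 1.24% as much lower. Dntt, under 10 CPM in WT, reached that mean through its KO level and so had to differ, and the count is a description. The median log2 ratio of these 8 genes was 0.69, against 0.06 over all genes, and it was 0.28 with the mean per cell and 0.31 with clusters weighted alike, where 2 of 9 genes were as much higher. Of the 2 genes at 50 CPM or more, Lsp1 and Ikzf1, 0 were, with a median of 0.28. Dntt and Tox differed most, at 3.74-fold and 3.56-fold. Il7r, under 10 CPM, was the member that was lower in KO, and the interval of Cd27 spanned 0. Within HSC/MPP-like cells 5 of 7 genes were at least 1.5-fold higher (Dntt, Flt3, Satb1, Lsp1 and Tox; background 3.53% of 8622 genes) and 0 of 7 as much lower (1.35%), with a median log2 ratio of 1.31. Dntt and Lsp1 reached the mean of 10 CPM there through KO. At 50 CPM or more 2 of 4 genes were as much higher, with a median of 0.76. These 2, Satb1 (28.5 and 75.4 CPM) and Tox (35.5 and 127 CPM), reached that mean through KO as well. Cd27 and Ikzf1, above 50 CPM in both libraries, had log2 ratios of -0.13 and 0.11. The plot of KO over WT for each gene sets the whole-library ratio beside the ratio within progenitor clusters.

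**Figure D1:**
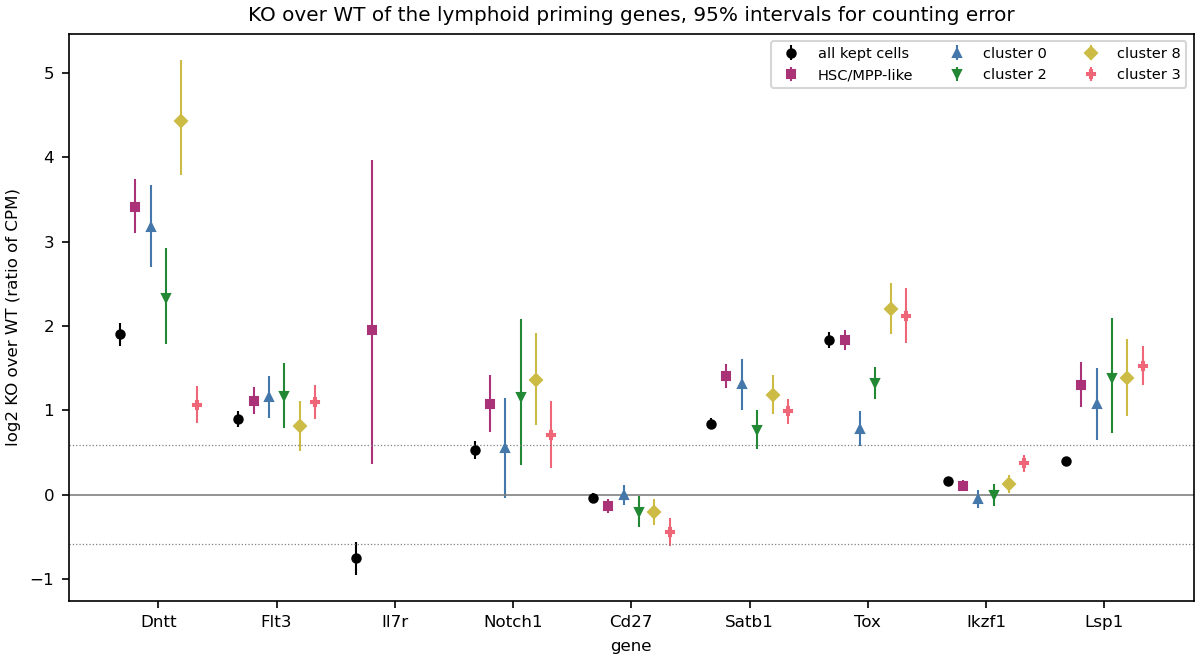
The vertical axis gives the log2 ratio of CPM, KO over WT, for each of the 9 genes on the horizontal axis, in all kept cells, in HSC/MPP-like cells and in clusters 0, 2, 8 and 3; bars are exact 95% intervals for counting error, dotted lines mark 1.5-fold, and values with under 20 UMIs in both libraries together or 0 UMIs in WT are left out. Dntt, Flt3, Satb1, Tox and Lsp1 lie above 0 in every group drawn, and Cd27 and Ikzf1 lie between -0.44 and 0.37.

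The HSC/MPP-like class did not hold the same mix of cells in both libraries. It had 906 WT and 1372 KO cells: the most WT cells lay in cluster 0 (467 WT and 435 KO; led by Mecom and Hlf) and the most KO cells in cluster 2 (198 and 638; led by Tox, Ccser1 and Sox6), while cluster 8 of dividing cells held 239 and 250 and cluster 26, led by interferon-induced genes, 2 and 49. Within cluster 0, 5 of 7 genes were again at least 1.5-fold higher in KO (background 2.56%), as were 5 of 7 in cluster 2 (4.12%) and 5 of 7 in cluster 8 (3.70%). The same 5 genes, Dntt, Flt3, Satb1, Lsp1 and Tox, passed in each of these 3 clusters, Lsp1 in all of them and Dntt in clusters 0 and 8 reaching the mean of 10 CPM through KO. With the clusters of the class weighted alike the median log2 ratio was 1.06, and without cluster 26 it was 1.26.

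Next to these lay cluster 3 (317 WT and 328 KO cells), which fixed markers did not name. Its leading genes included Cpa3, Ccl9, Dntt, Flt3, Satb1 and Myc. In this cluster 6 of 8 genes were at least 1.5-fold higher in KO (background 2.77%) with Notch1 joining the 5 above. It is described below as a group of progenitors by number only. Neutrophil progenitor markers summed to 7607 CPM there in WT and 6077 in KO, with all 8 detected, against 846 and 705 CPM in HSC/MPP-like cells.

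Outside these clusters the ratios have to be read against wider differences over all genes. In cluster 14, unnamed and led by cell division genes such as Ccnb2 (98 WT and 75 KO cells), 5 of 6 genes were at least 1.5-fold higher in KO (Flt3, Satb1, Notch1, Tox and Ikzf1), where 9.08% of all genes were, but Flt3, Notch1 and Tox reached the mean of 10 CPM through KO. Satb1 went from 33 to 60 UMIs there, 16.008 and 47.8 CPM. In basophil or mast cell-like cluster 15 (85 and 70 cells) 6 of 7 were (background 13.6%), Il7r reaching the level through KO, among them Tox at 18.2 and 61.8 CPM, and Cd27 was the other way, at 34.3 and 19.6 CPM. In dendritic cell-like cells 3 of 8 were (12.2%): Dntt, at 13.8 and 34.3 CPM, Il7r, and Tox, at 16.1 and 138 CPM from 3 and 11 cells with a UMI.

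Dntt (chromosome 19, 41029275 to 41059525, plus strand) encodes terminal deoxynucleotidyl transferase, the polymerase that adds bases without a template at the joints of antigen receptor genes. Over all cells it stood at 4.81 CPM (4.42 to 5.22) in WT, from 571 UMIs in 125 cells, and at 17.97 CPM (17.2 to 18.8) in KO, from 1984 UMIs in 490 cells. The log2 ratio was 1.90 (1.77 to 2.04). Its highest level lay in the small B cell-like cluster (67 WT and 50 KO cells), at 367 CPM in WT and 257 CPM in KO, from 9 cells with a UMI in each. Among the 21 clusters with at least 50 cells in each library, cluster 3 came next.

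Within HSC/MPP-like cells Dntt stood at 4.68 CPM in WT (91 UMIs in 57 cells) and 49.99 CPM in KO (1189 UMIs in 337 cells), a log2 ratio of 3.42 (3.11 to 3.74). By cluster its level went from 4.79 to 43.1 CPM in cluster 0, from 10.3 to 51.5 in cluster 2, from 2.56 to 55.3 in cluster 8 and from 29.4 to 61.4 in cluster 3. In WT the level of cluster 3 was above those of the HSC/MPP-like clusters, but 9 of its cells held 228 of its 251 Dntt UMIs, and 1 of them 83. In KO these 4 clusters stood within a range of 43.1 to 61.4 CPM. Of all Dntt UMIs of a library, cluster 3 held 44.0% in WT and 26.7% in KO, B cell-like cells 27.5% and 4.18%, and cluster 2 5.08% and 23.0%.

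A few cells carried much of the Dntt RNA. Over all cells, 21 WT cells with 5 or more Dntt UMIs held 427 of 571 UMIs, and 90 such KO cells held 1340 of 1984. Within HSC/MPP-like cells the top KO cell alone had 138 UMIs, the top WT cell 6. Cells of the class with UMIs of at least 2 of the 8 B cell markers (26 WT and 9 KO) held 4 and 253 Dntt UMIs, and without them the log2 ratio was 3.096. The summed B cell markers themselves stood at 28.6 CPM in WT and 27.6 CPM in KO HSC/MPP-like cells, with 8 and 7 of 8 detected and Pax5 at 0 in KO, and their part in the level of Dntt was not tested. Over all cells the ratio of Dntt was under 1.5-fold when clusters of at least 50 cells in each library counted alike (log2 0.30), a setting in which the B cell-like cluster weighs as much as any other.

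Flt3 (chromosome 5, 147330741 to 147400489, minus strand) encodes the receptor tyrosine kinase for Flt3 ligand, which supports lymphoid-primed progenitors and dendritic cells. Over all cells it went from 12.4 CPM (11.8 to 13.1; 1477 UMIs in 659 cells) in WT to 23.1 CPM (22.2 to 24.0; 2551 UMIs in 993 cells) in KO, a log2 ratio of 0.89 (0.80 to 0.99). Its highest level lay in dendritic cell-like cells, at 156 CPM in WT and 169 CPM in KO, where the interval of the log2 ratio (-0.19 to 0.41) spans 0. In cluster 0 it stood at 24.1 and 53.6 CPM, in cluster 2 at 23.0 and 51.5, in cluster 8 at 19.9 and 34.8, and in cluster 3 at 33.7 and 72.0. Flt3 was thus about as much higher in KO in the cells led by Mecom and Hlf (log2 1.16, 0.91 to 1.41) as in cluster 3 (1.10, 0.89 to 1.30). With clusters weighted alike over all cells its log2 ratio was 0.36, under 1.5-fold. In the list of Flt3 signalling partners, 0 of 9 measured genes passed 1.5-fold in either direction over all cells. Of all genes 2.06% were as much higher and 1.24% as much lower, so this count is near that share. The median log2 ratio was 0.23, against 0.06 over all genes, and the adaptor Gab2 stood at 206 and 261 CPM.

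Il7r (chromosome 15, 9505788 to 9530176, minus strand) encodes the alpha chain shared by the receptors for interleukin-7 and, with Crlf2, for thymic stromal lymphopoietin. It had 592 UMIs in 117 WT cells and 326 UMIs in 89 KO cells, or 4.98 and 2.95 CPM, a log2 ratio of -0.75 (-0.95 to -0.56). Few of these UMIs lay in the stem and progenitor clusters: HSC/MPP-like cells had 4 in WT and 19 in KO, 10 of the latter in 1 cell, and cluster 3 had 2 in each. The others lay mainly in basophil or mast cell-like cluster 20 (67 WT and 38 KO cells; 378 and 224 CPM), in T or NK cell-like cells (24 and 15 cells; 896 and 202 CPM), in B cell-like cells (168 and 121 CPM) and in dendritic cell-like cells (26.8 and 93.5 CPM). In the dendritic cell-like cells Il7r was higher in KO (log2 1.80, 1.23 to 2.40), from 8 WT and 12 KO cells with a UMI. Cluster 20, whose leading genes are the basophil genes Prss34 and Mcpt8, held 45.1% of all Il7r UMIs in WT and 26.4% in KO. Of the list of IL-7 receptor signalling genes, 0 of 8 passed 1.5-fold over all cells. In HSC/MPP-like cells 1 of 8 did, the common gamma chain Il2rg (55.5 and 83.5 CPM, log2 0.59). Of all genes 2.06% were as much higher and 1.24% lower over all cells, and 3.53% and 1.35% in that class. Over all cells the direction of Il7r depended on how clusters were weighted: with clusters of at least 50 cells in each library weighted alike, which leaves out cluster 20 and the T or NK cell-like cells, it was 0.31.

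Notch1 (chromosome 2, 26457903 to 26516663, minus strand) encodes the receptor that commits progenitors to the T lineage in the thymus. Over all cells it stood at 10.98 CPM (10.4 to 11.6) in WT and 15.9 CPM (15.1 to 16.6) in KO, a log2 ratio of 0.53 (0.43 to 0.64), under 1.5-fold. Its levels were highest in basophil or mast cell-like cluster 20 (91.9 and 91.1 CPM) and monocyte-like cluster 6 (41.6 and 44.2 CPM), among clusters of any size apart from the T or NK cell-like cells, and the interval of its ratio spanned 0 in both. In HSC/MPP-like cells it had 103 and 265 UMIs, 5.30 and 11.1 CPM, which is under the level set for counting but gives a log2 ratio of 1.07 (0.74 to 1.42). Of the rest of the pathway, 0 of 15 measured Notch pathway genes passed 1.5-fold over all cells or in HSC/MPP-like cells. The shares over all genes were 2.06% higher and 1.24% lower, and 3.53% and 1.35% in that class. The coactivator Maml3 came nearest, with 285 and 410 CPM over all cells (log2 0.52), and the paralog Notch2 stood at 53.4 and 60.9 CPM.

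Cd27 (chromosome 6, 125232622 to 125237010, minus strand) encodes a TNF receptor family member carried by multipotent progenitors and lymphocytes. It stood at 39.2 CPM (38.1 to 40.4) in WT and 38.0 CPM (36.9 to 39.2) in KO over all cells, with a log2 ratio of -0.04 (-0.11 to 0.02). Among the 21 larger clusters its level was highest in cluster 0, at 152 CPM (WT) and 151 CPM (KO), and lower in clusters 2 (122 and 106), 8 (98.4 and 85.3) and 3 (79.9 and 58.8). Of 18 clusters with at least 20 Cd27 UMIs, the interval lay below 0 in 10, spanned it in 8 and lay above it in 0. Each of the other 8 genes had at least 2 clusters with the interval above 0. In cluster 3 its log2 ratio was -0.44 (-0.61 to -0.27), and in neutrophil progenitor-like cluster 9, at 16.9 and 7.89 CPM, it was -1.10. Of the CD27 signalling list, 0 of 6 genes passed 1.5-fold over all cells, where 2.06% of all genes were as much higher and 1.24% lower. The median log2 ratio of the list was 0.20, against 0.06 over all genes.

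Satb1 (chromosome 17, 51736187 to 51833290, minus strand) encodes a chromatin organiser needed for lymphoid development from stem cells. It went from 27.6 CPM (26.7 to 28.6; 1450 cells) in WT to 49.4 CPM (48.1 to 50.7; 2061 cells) in KO, a log2 ratio of 0.84 (0.78 to 0.90). Its interval lay above 0 in 11 of 18 clusters with at least 20 UMIs and below 0 in 0. In cluster 0 it stood at 15.8 and 39.2 CPM, in cluster 2 at 65.4 and 112, and in cluster 3 at 65.3 and 129. In the basophil or mast cell-like cluster 20 it stood at 256 and 258 CPM, the same in both genotypes within counting error.

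Tox (chromosome 4, 6686353 to 6991557, minus strand) encodes an HMG-box nuclear factor known from T cell and innate lymphoid development. It stood at 10.1 CPM (9.50 to 10.7; 324 cells) in WT and 35.8 CPM (34.7 to 37.0; 787 cells) in KO, a log2 ratio of 1.83 (1.74 to 1.93). Among the HSC/MPP-like clusters it was highest in cluster 2, at 88.0 CPM in WT and 220 CPM in KO, and cluster 2 alone held 20.8% of Tox UMIs in WT and 49.2% in KO. Tox leads cluster 2 by fold, although it was not among the clustering genes, so its level there is a description of the cluster. In cluster 0, of like size in both libraries, it stood at 37.0 and 63.7 CPM (log2 0.78, 0.57 to 0.99), in cluster 8 at 14.7 and 67.6 and in cluster 3 at 11.5 and 49.9. T or NK cell-like cells had the highest level and the opposite order, 1082 CPM in WT and 394 CPM in KO, from 24 and 15 cells. T or NK cell markers summed to 8.90 CPM in WT and 5.30 CPM in KO HSC/MPP-like cells, with Cd3e, Cd3g and Il2rb at 0 in both, and their part in the level of Tox was not tested.

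Ikzf1 (chromosome 11, 11685003 to 11772926, plus strand) encodes Ikaros, a zinc finger factor expressed across blood cells and required for lymphoid priming. It was the most widely detected of the 9, in 3640 WT and 3845 KO cells, at 169 CPM (167 to 171) and 189 CPM (187 to 192), a log2 ratio of 0.17 (0.14 to 0.19). In clusters 0 and 2 the ratio's interval spanned 0 (-0.05 and -0.01), and in cluster 3 it was 0.37 (0.27 to 0.47). Its highest level lay in B cell-like cells, at 782 CPM (WT) and 778 CPM (KO). The paralog Ikzf2 stood at 126 and 177 CPM over all cells (log2 0.49). Of the 6 measured paralogs of the 9 genes, 0 passed 1.5-fold over all cells, where 2.06% of all genes were as much higher and 1.24% lower.

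Lsp1 (chromosome 7, 142460809 to 142494867, plus strand) encodes an actin-binding protein of leukocytes. It stood at 65.2 CPM (63.8 to 66.7) in WT and 85.9 CPM (84.2 to 87.6) in KO, a log2 ratio of 0.40 (0.35 to 0.44), under 1.5-fold. Its highest levels lay in mature cells, at 877 and 851 CPM in dendritic cell-like cells and 837 and 1057 CPM in unnamed cluster 21, led by Adgre4 and Cx3cr1. In dendritic cell-like cells, in monocyte-like cluster 6 (490.4 and 480.0 CPM) and in B cell-like cells (479 and 487 CPM) the interval of its ratio spanned 0. In progenitors its level was 8.66 and 18.2 CPM in cluster 0, 7.78 and 20.2 in cluster 2, 7.56 and 19.7 in cluster 8, and 24.6 and 70.9 in cluster 3 (log2 1.53, 1.30 to 1.76). Monocyte markers summed to 110 CPM in WT and 143 CPM in KO HSC/MPP-like cells and to 365 and 595 CPM in cluster 3, and dendritic cell markers to 144 and 324 CPM and to 57.8 and 106 CPM, with all 8 monocyte markers detected in both libraries and 8 or 9 of 10 dendritic cell markers. Their part in the levels of Lsp1 and Flt3 was not tested.

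**Figure D2:**
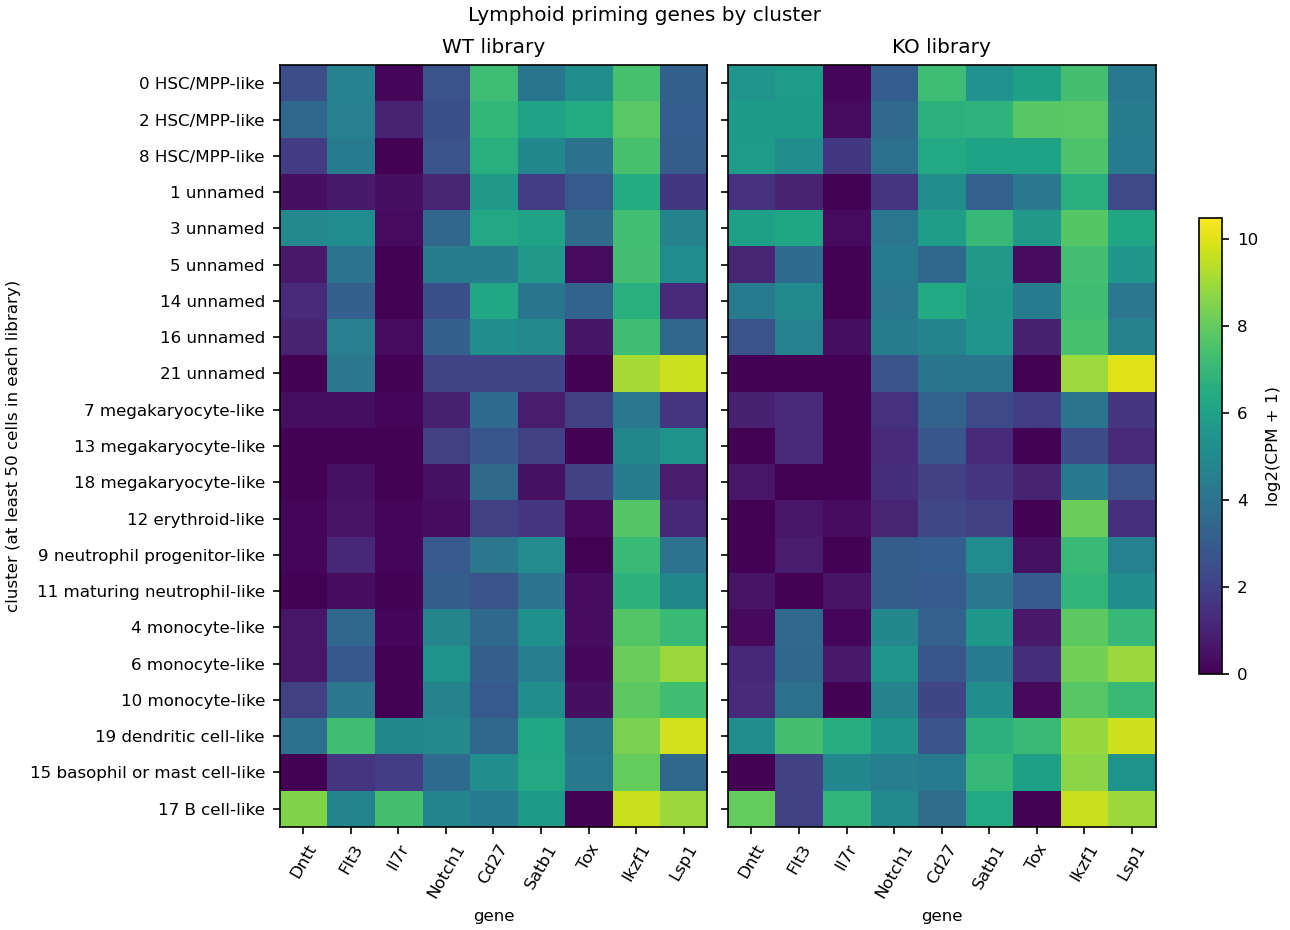
Colour gives log2(CPM + 1) of each of the 9 genes (columns) in each of the 21 clusters with at least 50 cells in each library (rows), in the WT library on the left and the KO library on the right. Among clusters 0, 2, 8 and 3, Dntt is highest in cluster 3 in WT (29.4 CPM) and lies between 43.1 and 61.4 CPM in KO, and Il7r is at or near 0 in all of these.

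Across these 21 clusters and both libraries (42 points, which share library and depth) each gene had others whose log2(CPM + 1) followed it closely, given here as a description. The nearest to Dntt was Cobll1 (Pearson r 0.82), to Flt3 Nsmaf (0.81), to Satb1 Znrf1 (0.91), to Il7r the B and dendritic cell antigen gene Ly6d (0.92), to Notch1 Coro7 (0.93) and to Lsp1 Slfn2 (0.95). The nearest to Cd27 was the stem and progenitor homeobox gene Hoxa9 (0.90), to Tox Clnk (0.83) and to Ikzf1 Snx20 (0.92). Among the 9 genes themselves, Satb1 and Notch1 lay closest (0.83), Cd27 and Tox were at 0.69, Flt3 and Satb1 at 0.68 and Dntt and Flt3 at 0.66. Cd27 followed Hlf (0.81) and Mecom (0.74), as did Tox (0.70 and 0.71), while Lsp1 ran against both (-0.64 and -0.49).

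Other lymphoid genes are set here beside the shares over all genes. Over all cells 2.06% of genes were at least 1.5-fold higher and 1.24% as much lower, with a median log2 ratio of 0.06. In HSC/MPP-like cells it was 3.53% and 1.35%. A count of 0 in a short list is near these shares, and a count of 1 lies above them but rests on a single gene. Of 12 measured lymphoid transcription factors, 1 was at least 1.5-fold higher over all cells (Id2, 13.6 and 21.8 CPM) and 0 lower, with a median log2 ratio of 0.24. In HSC/MPP-like cells 1 of 11 was higher, Bach2 (92.7 and 143 CPM, log2 0.63), and 1 lower, Gata3 (21.5 and 12.2 CPM, log2 -0.82). Of 5 measured later B lymphoid genes, Ltb, which encodes lymphotoxin beta, was higher over all cells (7.72 and 18.2 CPM) and in HSC/MPP-like cells (10.2 and 50.6 CPM, log2 2.31), and Ighm and Cd79a were lower over all cells (log2 -4.38 and -0.71). In HSC/MPP-like cells 2 of 4 measured genes of this list were higher, Ltb and Rcsd1 (48.8 and 80.3 CPM, log2 0.72), and 1 was lower, Ighm (47.7 and 11.2 CPM, log2 -2.09). Plasma cell-like cells numbered 53 in WT and 0 in KO, and their part in the ratio of Ighm was not tested. Of the end joining genes that work beside Dntt, 0 of 5 passed 1.5-fold (median log2 ratio 0.12). The list of T and innate lymphoid genes had 1 measured member over all cells, Nkg7, lower in KO (37.1 and 18.005 CPM), a gene also among the leading genes of neutrophil progenitor-like cluster 9.

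To compare shares of cells, UMIs were drawn at random down to 5000 in every cell, and 242 WT and 199 KO cells with fewer were not used. Dntt was then detected in 2.46% of WT (1.55 to 3.71; 22 of 893) and 12.9% of KO HSC/MPP-like cells (11.2 to 14.9; 175 of 1352), against 6.29% and 24.6% without thinning. Flt3 was detected in 8.85% and 18.2%, Satb1 in 11.3% and 25.1%, Tox in 11.4% and 28.3%, Notch1 in 2.46% and 5.10%, Lsp1 in 3.70% and 7.10%, Cd27 in 44.8% and 41.3%, Ikzf1 in 52.4% and 56.8%, and Il7r in 1 cell of each library. The KO cells of this class were the shallower ones before thinning, with a median of 15226 UMIs against 19057.

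Erythroid-like cells, which should lack these genes apart from Ikzf1, were used as a view of free RNA. Thinned alike from medians of 58975 and 39680 UMIs, they had a Dntt UMI in 0 of 256 WT cells, which allows a share of up to 1.17% by the limit of 3 counts, and in 0 of 102 KO cells (up to 2.94%). Flt3 was found in 1 WT and 0 KO erythroid-like cells, Satb1 in 1 and 1, and Cd27 in 4 and 3. Megakaryocyte-like cells, of medians 22995 and 20857 UMIs, had Dntt in 1 of 366 and 1 of 362 cells and Satb1 in 2 and 5. The shares of Dntt, Flt3 and Satb1 in KO HSC/MPP-like cells were above all of these. The WT share of Dntt, 2.46%, was above the megakaryocyte-like share of 0.27% and above what 0 of 256 WT erythroid-like cells allows. Erythroid-like cells were deeper before thinning than HSC/MPP-like cells (medians 19057 and 15226 UMIs) and so lost a larger part of their UMIs. Their shares are thus no upper level for free RNA, whose part was not tested.

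Co-detection in single cells was also more frequent in KO for Dntt, Flt3 and Satb1, 3 of the 4 genes already at least 1.5-fold higher over all cells. At least 2 of the 3 were detected in 84 of 4236 WT cells (1.98%) and 257 of 4510 KO cells (5.70%), a difference of 3.72 percentage points (2.92 to 4.52). The size of this difference follows the detection rule: it was 1.00 point when 2 UMIs were required, 6.62 at 10000 UMIs per cell and 8.65 without thinning. In HSC/MPP-like cells it was 33 of 893 (3.70%) against 154 of 1352 (11.4%), in cluster 0 1.96% against 8.12%, in cluster 2 7.25% against 14.6%, in cluster 8 4.18% against 9.24% and in cluster 3 6.37% against 18.7%. All 3 genes were found together in 6 WT and 40 KO cells, of which 4 and 19 lay in cluster 3. At least 4 of the 9 genes were detected in 3.36% of WT and 12.3% of KO HSC/MPP-like cells. Some mature classes had higher shares, and not all of these rose in KO. Among T or NK cell-like cells (21 WT and 15 KO) it was 85.7% in WT, with a difference of -45.7 points (-67.9 to -14.1). Basophil or mast cell-like cells had 19.5% and 16.7%, and the interval of the difference spans 0 (-12.1 to 7.28). The difference was above 0 in dendritic cell-like cells (19.6% and 37.3%). In B cell-like cells it was 9.85 points (-9.81 to 28.95).

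A higher share of each gene alone also raises the number of cells with both, so each count of pairs is set beside the number that the product of the shares of its genes gives. This product takes no account of cell type. Over all cells, where many cell types lack both genes, the ratio of count to product therefore also depends on the mix of cell types and is a description. Over all cells, Dntt and Flt3 were found together in 16 WT cells, 5.24 times the 3.05 that the product of their shares gives, and in 82 KO cells, 3.51 times the 23.3. Within KO HSC/MPP-like cells, 53 cells had both where the product gives 31.8, and Dntt and Satb1 met in 61 where it gives 44.0. The WT counts in this class, 4 and 7 cells, are too few for a comparison of the ratios. Flt3 and Satb1 met in 24 WT cells (product 8.94) and in 76 KO cells (product 61.9). Over all cells again, Il7r met Satb1 in 50 WT cells (product 10.4) and 25 KO cells (9.63), and it met Notch1 in 28 and 18 (5.26 and 3.61). In HSC/MPP-like cells Il7r was detected in only 1 cell of each library.

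Stem cell genes were detected in many of the same cells. Dntt, Flt3 and Satb1 were already at least 1.5-fold higher in KO over all cells, so their higher shares in KO cells are a description. Of cells with a UMI of Hlf or Mecom, 169 of 953 in WT (17.7%) and 464 of 1186 in KO (39.1%) also had Dntt, Flt3 or Satb1, a difference of 21.4 percentage points (17.6 to 25.02). Of cells with neither stem cell gene, it was 541 of 3283 (16.5%) and 784 of 3324 (23.6%), a difference of 7.11 points (5.18 to 9.03). Only 321 WT and 483 KO cells with neither gene were HSC/MPP-like, so the 2 groups differ in cell type. The intervals cover counting error in 1 library per genotype, and the difference between the 2 groups was not tested. Within HSC/MPP-like cells a cell with no UMI at this depth may still express the gene. There the differences were 26.2 points with Hlf or Mecom (21.5 to 30.7) and 22.1 points without (15.8 to 28.0), with intervals that overlap. Cells with Hlf or Mecom made up 64.1% of WT and 64.3% of KO cells of the class. The levels of the stem cell genes themselves differed: in the class Hlf had 201 CPM (WT) and 287 CPM (KO), a log2 ratio of 0.51, and Mecom 174 and 196 CPM (0.17). Mecom was at least 1.5-fold higher in KO in cluster 2 (54.1 and 116 CPM), as were Hlf (123 and 205 CPM) and Mecom (107 and 179 CPM) in cluster 8, and Hlf over all cells (48.4 and 76.0 CPM). So was Mecom in cluster 3 (111 and 168 UMIs). The other way, Mecom was at least 1.5-fold lower in KO in cluster 14 (69 and 28 UMIs) and Hlf in cluster 15 (27 and 11 UMIs).

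**Figure D3:**
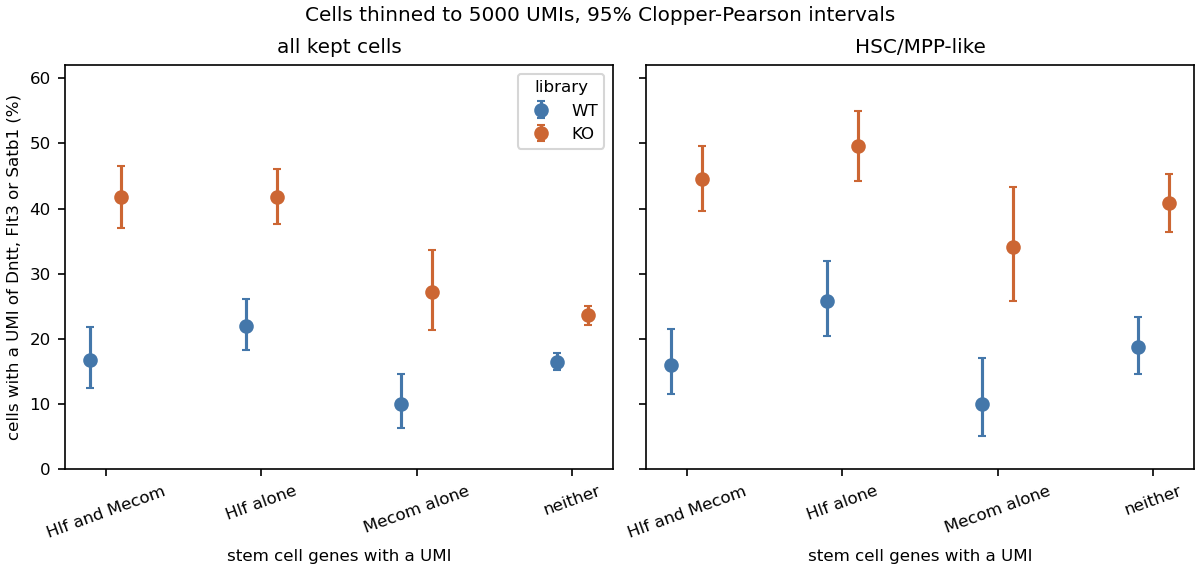
The vertical axis gives the percentage of cells with at least 1 UMI of Dntt, Flt3 or Satb1 after thinning to 5000 UMIs, by which of Hlf and Mecom was detected in the cell (horizontal axis), for all kept cells on the left and HSC/MPP-like cells on the right; bars are exact 95% Clopper-Pearson intervals. KO lies above WT in all 4 states on both sides, and the gap is smallest among all kept cells with neither gene (16.5% and 23.6%). Dntt, Flt3 and Satb1 were already at least 1.5-fold higher in KO over all cells.

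The 4 states also split the genes. In cells of this class with both Hlf and Mecom (225 WT and 393 KO), Dntt had 5.01 CPM (WT) and 60.2 CPM (KO) (log2 3.59, 2.98 to 4.26), and with neither (321 and 483) 3.48 and 53.5 (3.94, 3.37 to 4.57). The intervals of these ratios overlapped. With Hlf or Mecom, Flt3 had 26.7 CPM (WT) and 63.4 CPM (KO) (log2 1.25, 1.06 to 1.43), and with neither 15.5 and 20.3 (0.39, 0.04 to 0.74). These intervals cover counting error only, and the difference between the states was not tested. In KO HSC/MPP-like cells 82.5% of the 246 Flt3-positive cells (77.2 to 87.1) had Hlf or Mecom, against 64.3% of all cells of the class, and in WT 70.9% of 79 (59.6 to 80.6) against 64.1%. Flt3 and Mecom met in 128 KO cells where the product of shares gives 93.9, and in 33 WT cells where it gives 29.7.

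Satb1 lay apart from Mecom in both libraries. The pair met in 17 WT HSC/MPP-like cells where the product of shares gives 38.0, and in 89 KO cells where it gives 129.8. With Mecom alone Satb1 had 9.35 CPM (WT) and 51.3 CPM (KO), with both genes 15.5 and 51.7, with Hlf alone 41.6 and 89.8 and with neither 34.4 and 92.6. The KO level was higher in each state, while the order, lower in cells with Mecom, was the same in WT and KO. Cd27 met both stem cell genes more often than the product gives: 249 WT and 376 KO cells with Hlf (206 and 308) and 168 and 271 with Mecom (151 and 213).

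Tox had another order in each library. In WT HSC/MPP-like cells it was highest with both stem cell genes, at 48.8 CPM, and lowest with neither, at 22.6 CPM. In KO it was highest with neither, at 164 CPM, and stood at 114 CPM with both. The log2 ratio was 2.86 (2.63 to 3.099) with neither and 1.28 (1.13 to 1.43) with Hlf or Mecom. Cluster 2, where Tox leads, held 198 of 906 WT and 638 of 1372 KO cells of this class. Of the thinned cells of the class with neither gene, 101 of 321 in WT and 270 of 483 in KO lay in cluster 2. The mix of clusters in this state thus differed between the libraries, and its part in the order of Tox was not tested. Within cluster 2, 52.3% of thinned WT and 43.3% of thinned KO cells had neither gene. Lsp1 leaned the same way as Tox, with log2 ratios of 1.77 (1.31 to 2.25) with neither and 1.03 (0.70 to 1.36) with Hlf or Mecom, whose intervals overlap. None of these differences between states was tested.

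**Figure D4:**
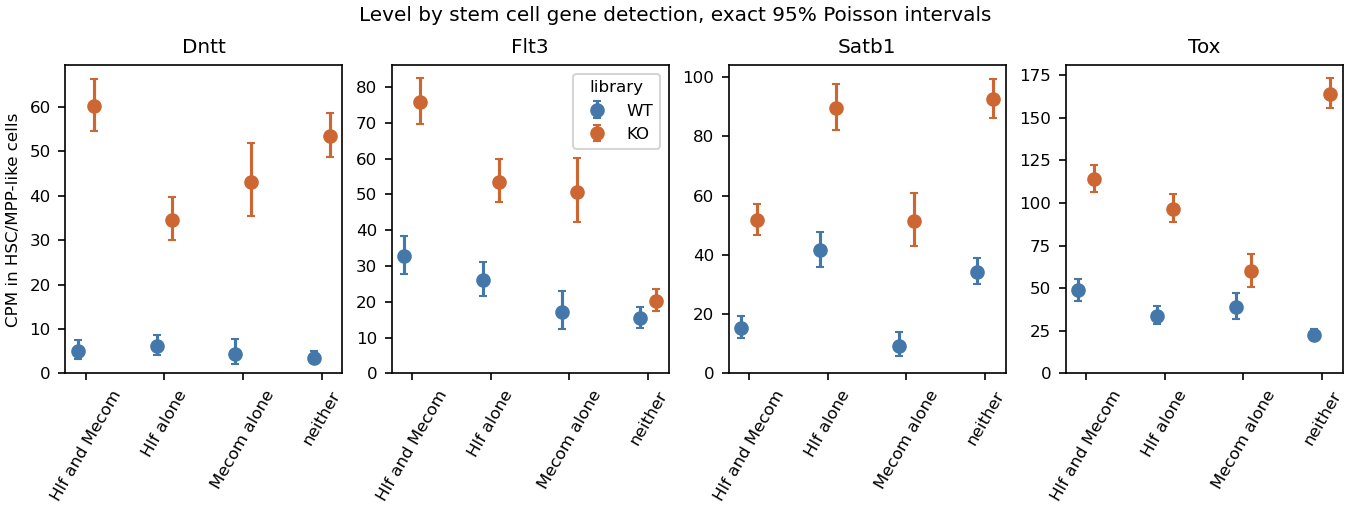
Each panel gives the CPM (vertical axis, from 0) of Dntt, Flt3, Satb1 or Tox in HSC/MPP-like cells by which of Hlf and Mecom was detected after thinning (horizontal axis), in WT and KO; bars are exact 95% Poisson intervals. In KO, Flt3 is highest with both stem cell genes (75.9 CPM) and Tox with neither (164 CPM), and Satb1 is lower in the states with Mecom in both libraries.

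Il7r was rarely found with a stem cell gene. Of the 86 WT cells with an Il7r UMI after thinning, 10 had Hlf or Mecom, and of 50 KO cells 1 had. Il7r and Hlf met in 9 WT cells where the product of shares gives 14.8 and in 0 KO cells where it gives 10.8. Il7r and Mecom met in 4 WT cells (product 9.85) and 1 KO cell (7.26). These counts are over all cells, so the distance from the products also depends on the mix of cell types. Of Dntt-positive cells, by contrast, 41.8% of 55 in WT (28.7 to 55.9) and 53.9% of 243 in KO (47.4 to 60.3) had a stem cell gene, and Dntt and Il7r met in 10 WT and 11 KO cells.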

How the data were processed

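Single-cell RNA was counted in 1 WT and 1 Phf6 KO library, made with the Chromium Single Cell 3′ v3.1 kit per the labels' protocols. The deposited values are counts of UMIs per gene and cell, made by the authors with Cell Ranger on GRCm38, as version 3.0.1 per the submitters' processing notes and version 6.0.2 per the file headers. Cells under 500 genes were dropped (51 WT and 32 KO), then those of the rest over 10% mitochondrial UMIs (534 and 298). The 224 WT and 221 KO cells with the highest Scrublet scores were dropped next, a share of 0.8% per 1000 barcodes, since the tool's own threshold marked 5 and 89. The 2000 most variable genes without the 9 genes, Hlf and Mecom gave 30 principal components, 15 neighbours and Leiden clusters at resolution 1 (scanpy 1.11.5, leidenalg 0.10.2), which were named from fixed marker lists.

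UMIs were summed per library and group and divided by all UMIs of the same cells. Ratios carry exact conditional binomial intervals, levels exact Poisson, shares exact Clopper-Pearson and differences of shares Newcombe intervals, all at 95%. The ratio's interval was tried only on simulated Poisson counts of summed libraries, the kind of counts it assumes. Counts that lie mostly in a few cells, as those of Dntt do, were not simulated, so its coverage for them was not tested. A gene counted as higher or lower at 1.5-fold and a mean of 10 CPM. Detection and pairs used cells thinned to 5000 UMIs. The members and gene lists were chosen with earlier results of these data known. Genes named are the members, Hlf and Mecom, up to 4 genes per list with the largest ratios, those past 1.5-fold in HSC/MPP-like cells, the genes nearest to each member by Pearson correlation, and cluster markers. Alternatives covered scaling (edgeR 4.0.16), filters, doublets, resolution, clustering genes, cluster weights and thinning.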

Additional observations from a re-analysis of the deposited data

Results flagged for a closer look

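For 4 of the genes, among named classes with at least 20 UMIs of the gene, the interval of the log2 ratio of KO over WT lay above 0 in one class and below 0 in another; the difference between classes was not tested in any of them, since there was 1 library per genotype. Dntt had a ratio of 4.54 in T or NK cell-like cells, from 2 WT and 45 KO UMIs in 1 and 3 cells, and of -0.511 in B cell-like cells, from 157 and 83 UMIs in 9 and 9 cells. Il7r had 1.96 in HSC/MPP-like cells, from 4 and 19 UMIs, and -2.15 in T or NK cell-like cells, from 198 and 43 UMIs in 19 and 3 cells. Lsp1 had 1.31 in HSC/MPP-like cells (8.08 and 19.97 CPM) and -0.0953 in monocyte-like cells (4903 and 5733 UMIs). Tox had 4.78 in maturing neutrophil-like cells, where 1 cell in each library held all of its 1 and 30 UMIs, and -1.46 in T or NK cell-like cells, from 239 and 84 UMIs in 23 and 13 cells.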

How the results depend on the processing

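No paired analysis was possible because each genotype has 1 library. Over all cells, 4 of 8 genes were at least 1.5-fold higher in KO; the count was 0 of 2 when only genes at 50 CPM or more were counted and 2 of 9 with clusters weighted alike, and it was 3 or 4 in the other settings. The median log2 ratio of 0.69 became 0.28 with the mean per cell, 0.28 at 50 CPM, 0.53 with no minimum and 0.31 with clusters alike, and, in settings chosen after seeing the data, 0.55 in thinned cells and 0.52 without cells with at least 2 B cell markers. In HSC/MPP-like cells 5 of 7 became 2 of 4 at 50 CPM, and these 2, Satb1 and Tox, reached that mean through KO. The median of 1.31 became 0.76 at 50 CPM, 1.14 with cells of 1000 genes and at most 5% mitochondrial UMIs, and 1.13 at resolution 0.5. It became 1.14 with the 9 genes, Hlf and Mecom among the clustering genes and 1.06 with clusters alike. Settings that leave out B cell-like and T or NK cell-like cells, or cluster 26, were also chosen after seeing the data. The 3.72 points of co-detection became 6.62 at 10000 UMIs, 8.65 without thinning and 1.00 when 2 UMIs were required, and the 21.4 points in cells with Hlf or Mecom became 26.2 in HSC/MPP-like cells. Il7r reversed to 0.31 over all cells with clusters alike, and in HSC/MPP-like cells, from 4 and 19 UMIs, to -0.42 with the mean per cell and -2.18 in thinned cells. Where no construction is named, the cause was not tested. With doublets kept the HSC/MPP-like class had 534 WT and 895 KO cells. Il7r was found in 2 WT and 7 KO HSC/MPP-like cells, so its ratio there rests on few cells.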
